A study of Mus musculus with 8 samples.

Results

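The 34 genes described here act in DNA replication and cell division and were taken by name from a deposited table of 46983 mouse genes. Each name occurred in the table, all 34 had reads, and all 34 were among the 22546 genes that passed the filter on low values. The table comes from 8 libraries of total RNA of microglia, macrophages that live in the brain, taken from the corpus callosum. All mice were Cx3cr1-CreER mice on an FvB/C57BL6 hybrid background, were injected with tamoxifen at an age of 8 weeks and received 0.2% cuprizone in the diet for 6 weeks, a toxin that kills oligodendrocytes and so removes myelin. Libraries named Qk-KO (n = 4) and libraries named WT (n = 4) were compared. In the labels Qk-KO stands for QKLoxP/LoxP and WT for QKLoxP/+, so the named WT mice also carried the inducible Cre recombinase and a floxed allele of Qk, which encodes the RNA-binding protein quaking. Cx3cr1 drives the Cre recombinase in microglia and other mononuclear phagocytes.

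The labels contradict each other on genotype. The genotype field gives WT for the libraries named Qk-KO 1 and Qk-KO 3, and Qk-KO for the libraries named WT 2 and WT 3. Both groupings were tested, and differences are reported by name or by field, not by genotype. Libraries are called by their names. Nothing in the labels ties a library to an animal of its own. The p-values therefore measure how much these libraries vary, in part perhaps for technical reasons.

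Dividing cells express these genes in order. D-type cyclins drive G1 phase and release E2F transcription factors, which switch on the helicase, clamp and nucleotide genes of S phase. Cyclins A and B with the kinase Cdk1 then drive mitosis, whose spindle and checkpoint genes are read mostly in G2 and mitosis. Microglia renew themselves by local division and multiply around demyelinated tissue. In bulk RNA, a change in the number of dividing cells and a change in RNA per cell cannot be told apart.

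Values are regularized log2 values as the authors deposited them, scaled for depth and drawn towards the gene's mean where reads are few. Rough totals of reads assigned to genes were 43.9 to 58.5 M in named Qk-KO and 59.7 to 69.7 M in named WT libraries. Qk itself was 15.59, 15.40, 15.69 and 15.29 in Qk-KO 1 to 4, against 15.50, 15.38, 15.41 and 15.37 in WT 1 to 4, so the gene's summed exons did not separate the named groups (difference 0.08 ± 0.09 SE, limma adjusted p = 0.819). By genotype field, Qk was 15.40, 15.29, 15.38 and 15.41 in the field Qk-KO libraries (Qk-KO 2, Qk-KO 4, WT 2 and WT 3), against 15.59, 15.69, 15.50 and 15.37 in the field WT libraries (Qk-KO 1, Qk-KO 3, WT 1 and WT 4). These groups overlapped through WT 4, and the difference had the opposite sign, -0.16 ± 0.08 SE (limma adjusted p = 0.9995). The 10 microglia markers together made up 15943 to 18763 CPM (the share of a library, on the usual CPM scale) in named Qk-KO and 19592 to 22667 CPM in named WT libraries, and none was at 0. The authors' deposited table calls 4 of them, Cx3cr1, Csf1r, Sall1 and Gpr34, lower in named Qk-KO, against 1.22% of its 14150 genes with an adjusted p called. Limma called 0 of the 10. The part of the microglia share in the cell cycle values was not tested. The 34 cell cycle genes together made up 428, 443, 452 and 602 CPM in Qk-KO 1 to 4, against 456, 454, 400 and 502 CPM in WT 1 to 4. Qk-KO 4 was the highest of the 8 libraries and WT 3 the lowest, and the named groups overlapped.

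Qk-KO 4 stood apart. It held the highest value of all 8 libraries for 27 of the 34 genes, whereas it was highest for 17.7% of all genes tested. Averaged over the 34 genes, each taken as its deviation from its own mean, the libraries Qk-KO 1 to 4 lay at -0.20, -0.06, 0.00 and 0.50 and the libraries WT 1 to 4 at -0.11, -0.06, -0.28 and 0.20 on the log2 scale. Qk-KO 4 was the highest named Qk-KO library for 30 of the 34 genes. WT 4 was the highest named WT library for 22 genes, all of them among those 30. WT 3 was the lowest of all libraries for 15 of the 34 genes, against 8.72% of all genes tested. Qk-KO 1 was the lowest for 9, against 13.1% of all genes tested. Differences of the 34 genes between the named groups are therefore given with and without Qk-KO 4. Leaving out Qk-KO 4 alone necessarily lowers the difference of the 30 genes for which it was highest in its named group. WT 4 stays in, so some differences are also given without both libraries numbered 4.

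**Figure D1:**
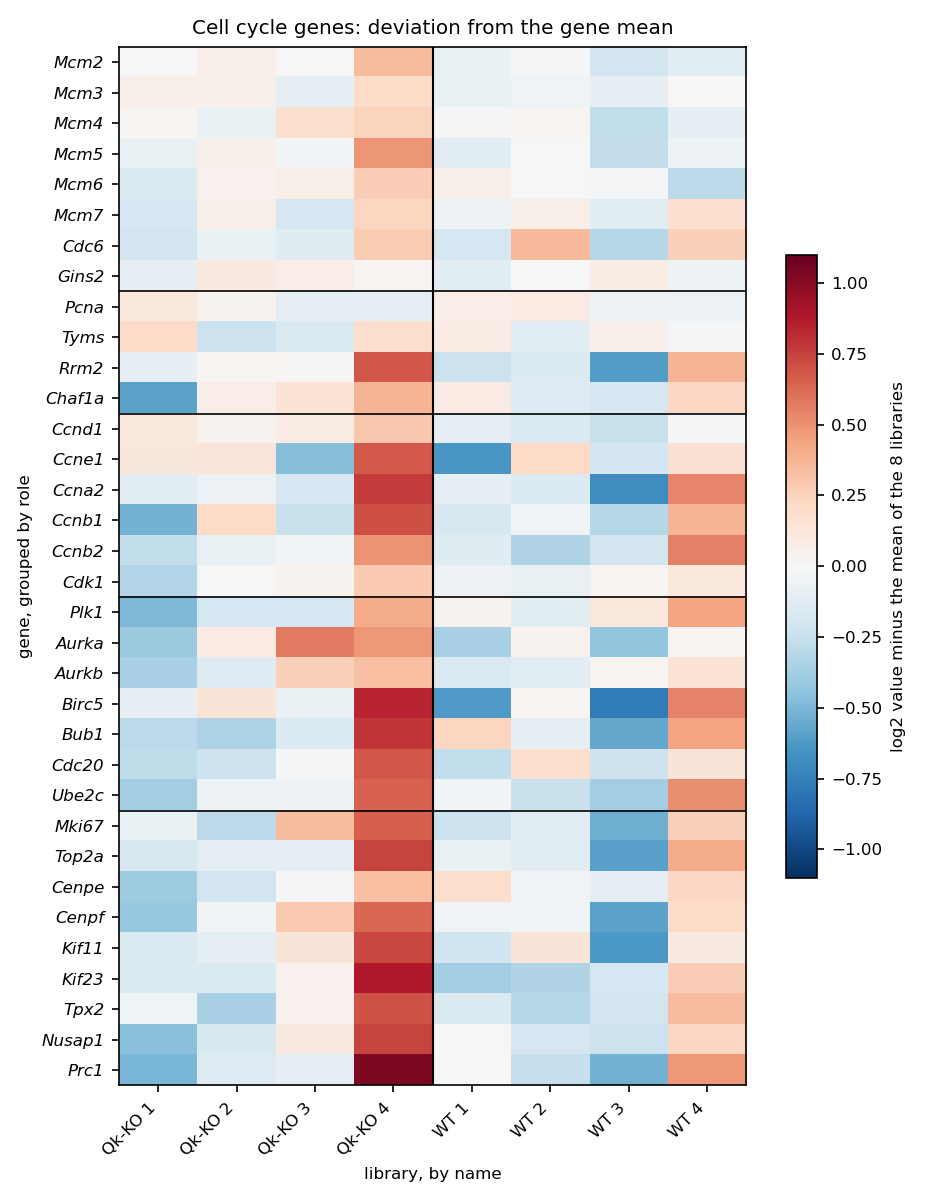
Each row is a gene, each column a library by name, and the colour is the regularized log2 value minus the gene's mean over the 8 libraries; horizontal lines separate the roles. Qk-KO 4 holds the highest value for 27 of 34 genes, and WT 4 is the highest named WT library for 22.

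No cell cycle gene passed the test between the named groups. By limma with Benjamini-Hochberg adjustment over all 22546 genes, 0 of 34 had an adjusted p under 0.05, where 0.00444% of all genes did (1 gene, lower in named Qk-KO). At an unadjusted p under 0.05 there was 1 gene, Ccnd1, where 8.26% of all genes passed. The authors' deposited table called none of the 32 genes for which it gives an adjusted p, against 1.22% of the 14150 genes with one. It gives none for Ccna2 and Top2a. The difference was above 0 for 28 of 34 genes, or 32 of 34 with each library centred on its median, while 48.8% of all genes tested, and 51.4% of those with at least the signal of the lowest of the 34, lay above 0. The named groups did not overlap for 2 of 34 genes, Ccnd1 and Mcm2, against 5.73% of all genes tested. The median difference over the 34 genes was 0.11, against -0.0044 over all genes tested. Without Qk-KO 4 the difference was above 0 for 16 of 34 genes (49% of all genes), with a median of -0.03. Without Qk-KO 4 and WT 4, added as a setting once Qk-KO 4 had been seen to stand apart, it was above 0 for 21 of 34 (49.4% of all genes), with a median of 0.06. When 1 library was left out, the median ran from -0.03 without Qk-KO 4 to 0.21 without Qk-KO 1.

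**Figure D2:**
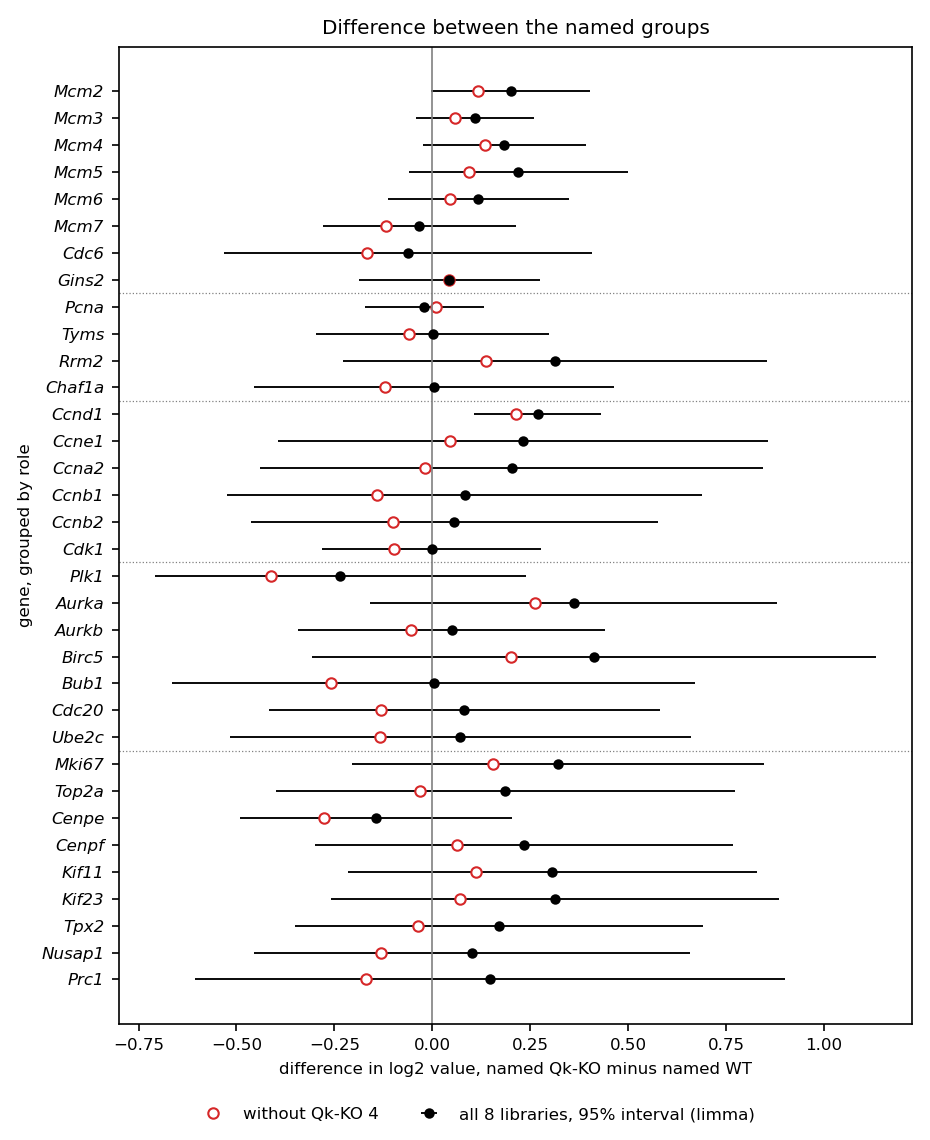
Filled points are the differences in regularized log2 value, named Qk-KO minus named WT, with 95% intervals from limma (n = 4 each); open red points leave out Qk-KO 4. Only the interval of Ccnd1, 0.11 to 0.43, does not include 0, and 18 of the 34 open points lie below 0.

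The cyclin of G1 phase had the smallest p of the 34. Ccnd1, cyclin D1, which partners Cdk4 and Cdk6 to inactivate the retinoblastoma protein, lies at chromosome 7, 144929931 to 144939925, on the minus strand (GRCm38). It was 12.13, 12.05, 12.09 and 12.31 in Qk-KO 1 to 4, against 11.90, 11.85, 11.76 and 11.99 in WT 1 to 4. Every named Qk-KO library lay above every named WT library, as in 3.04% of all genes tested and 3.71% of those with at least the signal of the lowest of the 34. Ccnd1 differed by 0.27 ± 0.07 (SE; 95% interval 0.11 to 0.43), and its limma adjusted p was 0.431. In the authors' deposited table the log2 fold change was 0.28 with an SE of 0.09 and an adjusted p of 0.0831. Without Qk-KO 4 the difference was 0.21. LTO1, on the opposite strand, shares 23.4% of the exon bases of Ccnd1 at a mean signal of 684, against 4153 for Ccnd1. No source used here says whether counting used strand, so part of the reads of Ccnd1 is uncertain.

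The other cyclins and Cdk1 varied more between libraries than between named groups. Ccne1, cyclin E1, which starts S phase, was 5.97 ± 0.47 in named Qk-KO and 5.74 ± 0.40 in named WT libraries (SD, n = 4 each), a difference of 0.23, or 0.05 without Qk-KO 4. Ccna2, cyclin A2, which acts in S and G2 phase, was 8.02, 8.08, 7.96 and 8.91 in Qk-KO 1 to 4, against 8.03, 7.99, 7.46 and 8.68 in WT 1 to 4. The libraries numbered 4 were the highest of both named groups, WT 3 was the lowest, and the other 5 libraries lay within 7.96 to 8.08. Its difference was 0.20 with all libraries, -0.02 without Qk-KO 4, and 0.19 without Qk-KO 4 and WT 4. The B cyclins, which activate Cdk1 for mitosis, differed by 0.08 for Ccnb1 and 0.06 for Ccnb2 with all libraries, and by -0.14 and -0.10 without Qk-KO 4. Without Qk-KO 4 and WT 4 they differed by -0.0030 and 0.09. Cdk1 itself was 9.10 ± 0.25 in named Qk-KO and 9.10 ± 0.09 in named WT libraries (SD, n = 4 each), and differed by -0.10 without Qk-KO 4.

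Among the genes of origin licensing and the replicative helicase, 6 of 8 differences were above 0, 0 passed the test, and the median was 0.11. That median was 0.05 without Qk-KO 4, and also 0.05 without Qk-KO 4 and WT 4. The Mcm genes encode the subunits of the ring that is loaded on origins and unwinds DNA. Mcm2 was 10.01, 10.06, 9.997 and 10.35 in Qk-KO 1 to 4, against 9.93, 9.992, 9.81 and 9.88 in WT 1 to 4. The named groups did not overlap, by a margin under 0.01 between Qk-KO 3 and WT 2, and the difference was 0.20 ± 0.09 (SE; limma adjusted p = 0.607), or 0.12 without Qk-KO 4. Mcm4 was 10.07, 9.98, 10.23 and 10.29 in Qk-KO 1 to 4, against 10.03, 10.08, 9.78 and 9.94 in WT 1 to 4. Here the named groups overlapped, with a difference of 0.18 ± 0.09 (SE; limma adjusted p = 0.647), or 0.13 without Qk-KO 4. Mcm3, the helicase subunit with the highest level, was 11.51, 11.51, 11.37 and 11.67 in Qk-KO 1 to 4, against 11.39, 11.41, 11.37 and 11.45 in WT 1 to 4, a difference of 0.11 ± 0.07 (SE; limma adjusted p = 0.687), or 0.06 without Qk-KO 4. Mcm5 and Mcm6 differed by 0.22 and 0.12, or 0.09 and 0.05 without Qk-KO 4. Mcm7 differed by -0.03, or -0.12 without Qk-KO 4, and its sign turned with median centring (0.04). Cdc6, the loader of the helicase ring, had the lowest mean signal of the 34 genes, 42.1, and differed by -0.06 ± 0.21 (SE), or 0.01 with median centring and -0.17 without Qk-KO 4. Gins2, a subunit of the GINS complex that turns the ring into an active helicase, ranged over 0.21 across the 8 libraries and differed by 0.04 both with and without Qk-KO 4. Gse1, on the opposite strand, shares 67.3% of its exon bases, so its reads are uncertain.

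The genes of nucleotide supply, the replication clamp and chromatin assembly had 3 of 4 differences above 0 and a median of 0.00, or 2 of 4 and -0.03 without Qk-KO 4. Without Qk-KO 4 and WT 4 there were 1 of 4 above 0, with a median of -0.03. Pcna, the sliding clamp of DNA polymerases, was 12.62, 12.54, 12.41 and 12.40 in Qk-KO 1 to 4, against 12.57, 12.59, 12.45 and 12.43 in WT 1 to 4. It was lowest in Qk-KO 4, the library that was highest for most of the other genes, and its difference of -0.02 ± 0.07 (SE) had a 95% interval of -0.17 to 0.13 (0.06 with median centring, 0.0092 without Qk-KO 4). A near-identical copy, Pcna-ps2, had a mean signal of 362, against 5811 for Pcna, so their reads may be split. Rrm2, the regulated subunit of ribonucleotide reductase, was 7.12, 7.24, 7.23 and 7.90 in Qk-KO 1 to 4, against 6.98, 7.07, 6.60 and 7.59 in WT 1 to 4. It followed the libraries numbered 4, and its difference of 0.31 ± 0.24 (SE; limma adjusted p = 0.735) was 0.14 without Qk-KO 4. Without Qk-KO 4 and WT 4 Rrm2 differed by 0.32. Tyms, which makes thymidylate, was 7.99 ± 0.23 in named Qk-KO and 7.99 ± 0.09 in named WT libraries. Chaf1a, a subunit of the complex that places histones on new DNA, was 7.88 ± 0.42 in named Qk-KO and 7.87 ± 0.20 in named WT libraries (SD, n = 4 each for both genes). Without Qk-KO 4, Tyms differed by -0.06 and Chaf1a by -0.12. Ubxn6, on the opposite strand, shares 52.5% of the exon bases of Chaf1a.

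Of the 7 mitotic kinase, checkpoint and ubiquitin ligase genes, 6 had differences above 0 and 0 passed the test. The median was 0.07, and -0.13 without Qk-KO 4, when 2 of 7 remained above 0. Without Qk-KO 4 and WT 4 the median was 0.0052, with 4 of 7 above 0. Birc5, survivin, the partner of Aurora B in the chromosomal passenger complex, had the highest difference of the 34 genes when all libraries were used. It was 6.76, 6.99, 6.78 and 7.69 in Qk-KO 1 to 4, against 6.22, 6.87, 6.08 and 7.39 in WT 1 to 4, a difference of 0.41 ± 0.32 (SE; limma adjusted p = 0.736). That difference was 0.20 without Qk-KO 4, below those of Aurka and Ccnd1, and 0.66 without WT 4. Without Qk-KO 4 and WT 4 Birc5 differed by 0.45. Its highest values were again those of the libraries numbered 4, and its standard deviation among named WT libraries, 0.61, exceeded the difference. Aurka, the kinase of the spindle poles, was 6.60, 7.10, 7.58 and 7.48 in Qk-KO 1 to 4, against 6.66, 7.05, 6.59 and 7.03 in WT 1 to 4. Its highest library was Qk-KO 3, and the difference was 0.36 ± 0.23 (SE; limma adjusted p = 0.695), or 0.26 without Qk-KO 4. Cdc20, an activator of the anaphase-promoting complex, was 7.37, 7.42, 7.63 and 8.33 in Qk-KO 1 to 4, against 7.38, 7.83, 7.42 and 7.79 in WT 1 to 4, with a difference of 0.08, or -0.13 without Qk-KO 4. Plk1, a kinase of mitotic entry named here after its values were seen, had the lowest difference of the 34 genes, -0.23 ± 0.21 (SE; limma adjusted p = 0.774). It was -0.41 without Qk-KO 4 and -0.11 without Qk-KO 1. Aurkb, Bub1 of the spindle checkpoint and Ube2c, the ubiquitin-conjugating enzyme of the anaphase-promoting complex, differed by 0.05, 0.00 and 0.07, or by -0.05, -0.26 and -0.13 without Qk-KO 4.

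The 9 genes of spindle, kinetochore, cytokinesis and chromosome structure had their highest values in Qk-KO 4 in all 9 cases. Their mean deviation was 0.72 in Qk-KO 4 and 0.28 in WT 4, against 0.26 and -0.02 for the licensing and helicase genes. The median difference of the spindle and structure genes was 0.19, or -0.03 without Qk-KO 4. It was 0.14 without Qk-KO 4 and WT 4. Mki67, the proliferation antigen that coats mitotic chromosomes, was 10.66, 10.44, 11.08 and 11.39 in Qk-KO 1 to 4, against 10.50, 10.61, 10.20 and 10.995 in WT 1 to 4. The named groups overlapped, and the difference was 0.32 ± 0.23 (SE; limma adjusted p = 0.720), or 0.15 without Qk-KO 4. Without Qk-KO 4 and WT 4 Mki67 differed by 0.30. Top2a, which untangles sister chromatids, was 9.79, 9.87, 9.86 and 10.71 in Qk-KO 1 to 4, against 9.89, 9.85, 9.36 and 10.37 in WT 1 to 4. Apart from the libraries numbered 4 and WT 3, its values lay within 9.79 to 9.89. The difference was 0.19 with all libraries, -0.03 without Qk-KO 4, and 0.14 without Qk-KO 4 and WT 4. Kif11, the motor that pushes spindle poles apart, was 8.00, 8.06, 8.30 and 8.89 in Qk-KO 1 to 4, against 7.94, 8.30, 7.52 and 8.26 in WT 1 to 4 (difference 0.31 ± 0.23 SE, limma adjusted p = 0.733). Kif23, a motor of the cleavage furrow, was 6.97, 6.96, 7.17 and 8.00 in Qk-KO 1 to 4, against 6.74, 6.79, 6.93 and 7.39 in WT 1 to 4 (difference 0.31 ± 0.25 SE, limma adjusted p = 0.749). Without Qk-KO 4 these differences were 0.11 and 0.07, and without Qk-KO 4 and WT 4 they were 0.20 and 0.21. The other 5, Cenpe and Cenpf of the kinetochore and the microtubule proteins Tpx2, Nusap1 and Prc1, differed by -0.14 to 0.23, or by -0.28 to 0.06 without Qk-KO 4.

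**Figure D3:**
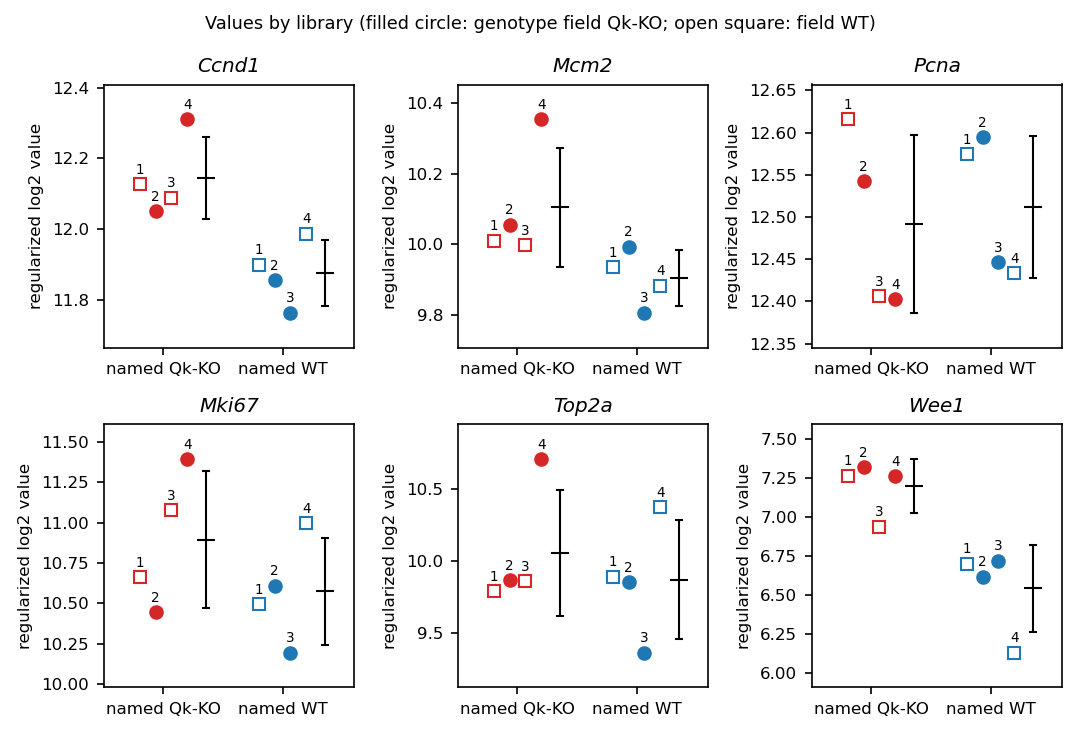
Regularized log2 values of 5 cell cycle genes and Wee1 in the 4 named Qk-KO (red) and 4 named WT (blue) libraries, with the library number above each point; bars are the mean ± SD, and the marker shape gives the genotype field. The named groups of Ccnd1, Mcm2 and Wee1 do not overlap, those of Pcna, Mki67 and Top2a do, and library 4 is the highest of both groups for Mki67 and Top2a.

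Grouped by the genotype field, the 34 genes also had no call. Limma gave 0 of 34 genes with an adjusted p under 0.05, as for 0% of all genes tested, and 0 at an unadjusted p under 0.05, where 2.67% of all genes passed. The difference was above 0 for 20 of 34 genes (50.7% of all genes tested), with a median of 0.06. It ran between -0.15 for Mki67 and 0.41 for Ccne1. Ccnd1 was 11.99 ± 0.24 in field Qk-KO and 12.03 ± 0.10 in field WT libraries (SD, n = 4 each), a difference of -0.03 with a 95% interval of -0.29 to 0.23. By genotype field its groups overlapped. Mki67 was 10.66 ± 0.52 in field Qk-KO and 10.81 ± 0.27 in field WT libraries (SD, n = 4 each). Without Qk-KO 4 the median difference by genotype field was -0.12.

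Scaled for exon length, the levels of the 34 genes spanned a wide range. On a scale on which all genes sum as in TPM, computed from the authors' mean signal and the exon lengths of GENCODE M21, Pcna stood at 59.5, Ccnd1 at 21.7 and Mcm3 at 18.5. Mki67 stood at 4.31, Top2a at 2.82 and Cdk1 at 2.75. Cdc6 was lowest at 0.198. Spread between libraries did not follow level alone. Mki67 and Mcm6 had mean signals of 1765 and 1706, and their standard deviations over the 8 libraries were 0.39 and 0.16.

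Most of the 34 genes varied together across libraries. The Pearson r of a gene with the mean of the other 33 had a median of 0.83 over the 8 libraries and was above 0.5 for 30 genes, and it was negative for Pcna (-0.57). These r values are a description of 8 libraries, and all genes of a library share its depth and cell composition. Without Qk-KO 4 and WT 4, the libraries farthest from the median, the median over 6 libraries was 0.51 and 18 genes were above 0.5, so the joint movement rested partly on those libraries. Prc1 kept an r of 0.78 and Cenpf 0.97 over these 6 libraries, while that of Tyms was -0.77. Outside the 34, the 10 genes most like their mean among 14107 genes of at least the same signal were Uhrf1, Bcl2l2, Hist1h3h, Skp2, Prim1, C330027C09Rik, Nek2, Mcam, Kif20a and Sft2d3, with r between 0.94 and 0.98 over 8 libraries and between 0.48 and 0.89 without Qk-KO 4 and WT 4. Of these, Uhrf1, Prim1, Nek2 and Kif20a stood on the lists of other cell cycle genes.

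The median standard deviation over the 8 libraries was 0.39 for the spindle and structure genes and 0.16 for the licensing and helicase genes. Signal moves with part of this contrast. Among all genes within 0.25 of a gene's signal on the log2 scale, the median standard deviation was 0.11 to 0.30 for the spindle and structure genes. It was 0.10 to 0.12 for the Mcm genes, but 0.23 for Gins2 and 0.38 for Cdc6, which are also licensing and helicase genes. The part of signal level in the contrast was not tested. RefSeq promoter windows of 300 bases (250 before to 50 after the start, GRCm38.p6) were matched for 28 of the 34 genes (all but Mcm4, Gins2, Ccnd1, Ccna2, Aurkb and Tpx2). They were searched on both strands for the cell cycle homology region (TTTGAA or TTTAAA), which the DREAM and MuvB complexes bind, for the CCAAT box of the factor NF-Y, and for E2F sites (TTTCCCGC, TTTGGCGC, TTTCGCGC or TTTGCCGC). The 28 genes had 30 windows, as Mcm7 and Prc1 had 2 each, and a gene was counted if any of its windows held a match. Shares of all promoters are per window. Of the 2 windows of Mcm7, 1 held no E2F match. The homology region was found for 19 of 28 genes and in 27.6% of all 32851 promoters. The CCAAT box was found for 23 of 28 and in 37.4% of all promoters, and an E2F site for 6 of 28 and in 2.26%. The E2F matches lay in Cdc6, Mcm3, Mcm5, Mcm6, Mcm7 and Cdk1, that is 5 of the 6 licensing and helicase genes matched. The homology region was found for 7 of 8 spindle and structure genes and 2 of 6 licensing and helicase genes. In 1 case a match shared bases with a match of another motif. The promoters printed are examples with a homology region (Top2a, Mki67 and Rrm2) and with E2F matches (Mcm3 and Mcm6), and that of Pcna. The first 5 of these genes were all highest in Qk-KO 4, as were 27 of all 34 genes, and Pcna was lowest there. Nusap1, with no match, and Bub1 and Chaf1a, with CCAAT boxes alone, were also highest in Qk-KO 4. Tyms, with no match, was highest in Qk-KO 1, and Cdc6, with an E2F match, in WT 2. Of genes with a homology region, Ccnb2 and Plk1 were highest in WT 4 and Aurka in Qk-KO 3. A link of motif to library was not tested. The promoters are written 5′ to 3′ on the strand of the gene, with all matches of the 3 motifs in capitals.
Top2a: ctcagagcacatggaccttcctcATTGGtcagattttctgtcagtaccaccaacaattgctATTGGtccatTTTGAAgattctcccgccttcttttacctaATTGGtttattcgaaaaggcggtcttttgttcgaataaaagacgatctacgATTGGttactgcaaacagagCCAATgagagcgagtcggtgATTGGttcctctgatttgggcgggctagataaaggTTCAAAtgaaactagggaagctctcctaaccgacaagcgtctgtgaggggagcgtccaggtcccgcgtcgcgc
Mki67: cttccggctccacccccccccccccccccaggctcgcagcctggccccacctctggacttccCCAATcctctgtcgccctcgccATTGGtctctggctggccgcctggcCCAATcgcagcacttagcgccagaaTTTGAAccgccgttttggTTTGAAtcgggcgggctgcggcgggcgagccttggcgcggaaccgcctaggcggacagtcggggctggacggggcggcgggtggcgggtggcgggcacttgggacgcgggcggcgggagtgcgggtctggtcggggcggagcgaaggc
Rrm2: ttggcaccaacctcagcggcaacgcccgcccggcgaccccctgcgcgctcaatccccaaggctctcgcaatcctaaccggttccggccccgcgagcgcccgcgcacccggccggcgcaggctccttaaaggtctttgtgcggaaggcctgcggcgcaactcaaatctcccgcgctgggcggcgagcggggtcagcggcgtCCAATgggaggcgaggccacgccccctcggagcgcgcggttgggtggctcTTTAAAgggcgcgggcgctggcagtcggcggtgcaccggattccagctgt
Mcm3: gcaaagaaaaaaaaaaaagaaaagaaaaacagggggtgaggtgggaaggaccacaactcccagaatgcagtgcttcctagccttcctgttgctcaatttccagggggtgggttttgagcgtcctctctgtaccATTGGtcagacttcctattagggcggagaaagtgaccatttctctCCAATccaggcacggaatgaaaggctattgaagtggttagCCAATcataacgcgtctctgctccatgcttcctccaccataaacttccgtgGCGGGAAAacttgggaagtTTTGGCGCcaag
Mcm6: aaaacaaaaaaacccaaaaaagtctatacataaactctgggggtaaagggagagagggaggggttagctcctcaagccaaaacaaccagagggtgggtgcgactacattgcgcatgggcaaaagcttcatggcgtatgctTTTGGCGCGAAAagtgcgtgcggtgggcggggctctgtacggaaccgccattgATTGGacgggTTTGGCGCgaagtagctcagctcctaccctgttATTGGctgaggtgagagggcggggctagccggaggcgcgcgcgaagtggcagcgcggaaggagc
Pcna: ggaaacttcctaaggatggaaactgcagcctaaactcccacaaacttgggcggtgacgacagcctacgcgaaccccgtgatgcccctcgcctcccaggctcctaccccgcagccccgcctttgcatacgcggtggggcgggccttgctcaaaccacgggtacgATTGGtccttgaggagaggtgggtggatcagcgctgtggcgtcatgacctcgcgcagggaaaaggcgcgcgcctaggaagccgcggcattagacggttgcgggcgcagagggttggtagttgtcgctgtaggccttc
These windows lie at chr11:99024140-99024439 for Top2a, chr7:135716330-135716629 for Mki67, chr12:24708004-24708303 for Rrm2, chr1:20820263-20820562 for Mcm3, chr1:128359656-128359955 for Mcm6 and chr2:132253131-132253430 for Pcna; all are on the minus strand except that of Rrm2. Top2a held 2 matches of the homology region and 6 CCAAT boxes, Mki67 2 and 3, and Rrm2 1 and 1. Mcm3 and Mcm6 held 2 and 3 E2F matches and no homology region. In Mcm6, 2 of the 3 lie on opposite strands and share 4 bases, so they appear as 1 run of capitals. Pcna held 1 CCAAT box alone. A match is a description of letters and not evidence of binding in these cells.

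Other cell cycle genes were taken from lists of their pathways. Of 30 other replication and S phase genes, 22 had differences above 0, with a median of 0.09 (0.01 without Qk-KO 4), and Qk-KO 4 was the highest library for 18. Dut, which removes dUTP, and Tk1, thymidine kinase, had the highest differences, 0.38 and 0.37, and Orc6, a subunit of the origin recognition complex, and Rpa2, which binds single-stranded DNA, the lowest, -0.17 and -0.13. Of 46 other G2 and mitosis genes, 38 were above 0, with a median of 0.13 (0.00 without Qk-KO 4), and Qk-KO 4 was highest for 34. The mitotic kinases Melk and Ttk had the highest differences, 0.54 and 0.44, and Cdca3 and the tubulin Tuba1b the lowest, -0.25 and -0.12. No gene of either list was called by limma or in the authors' deposited table. At an unadjusted limma p under 0.05 there were 0 and 1, where 8.26% of all genes tested passed.

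Of 24 genes of G1 control, E2F and pocket proteins, 13 were above 0, with a median difference of 0.02 (-0.09 without Qk-KO 4). Limma and the authors' deposited table called 0, and 3 had an unadjusted limma p under 0.05, where 8.26% of all genes tested did. Rbl1, a pocket protein that represses E2F targets, had the lowest difference. It was 10.12, 10.26, 9.84 and 10.07 in Qk-KO 1 to 4, against 10.47, 10.34, 10.45 and 10.36 in WT 1 to 4. Every named Qk-KO library lay below every named WT library, with a difference of -0.33 ± 0.09 (SE; limma adjusted p = 0.431). The named groups did not overlap, in either direction, for 5.73% of all genes tested. By genotype field Rbl1 differed by 0.09. Ccnd2, another D-type cyclin, was next lowest at -0.32, and E2f2 and the growth regulator Myc were highest at 0.25 each. The named groups of Cdc25a, named here after its values were seen, did not overlap either. Cdc25a was 9.64 to 9.71 in named Qk-KO and 9.51 to 9.59 in named WT libraries.

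Of 24 CDK inhibitor and checkpoint genes, 19 were above 0, with a median of 0.14 (0.16 without Qk-KO 4). Limma called 0, with 3 at an unadjusted p under 0.05, where 8.26% of all genes tested passed. The authors' deposited table called 1 of the 24, against 1.22% of the 14150 genes with an adjusted p. That gene was Wee1, the kinase that holds Cdk1 inactive until mitosis. Wee1 was 7.26, 7.32, 6.94 and 7.26 in Qk-KO 1 to 4, against 6.70, 6.62, 6.72 and 6.13 in WT 1 to 4. All named Qk-KO libraries lay above all named WT libraries, as in 3.04% of all genes tested. The log2 fold change was 0.72 with an adjusted p of 0.0441 in the authors' deposited table, while limma on the regularized values gave 0.65 ± 0.17 (SE) with an adjusted p of 0.431. By genotype field Wee1 differed by 0.22. Cdkn1a, the inhibitor p21, was 13.01, 11.73, 12.53 and 11.10 in Qk-KO 1 to 4, against 11.28, 11.56, 11.71 and 11.01 in WT 1 to 4, a difference of 0.71 ± 0.41 (SE; limma adjusted p = 0.682). Qk-KO 1 and 3, whose genotype field gives WT, were the highest, and the libraries numbered 4 were the lowest of both named groups. By genotype field Cdkn1a differed by -0.43, the opposite sign. Cdkn1c, another inhibitor of the same family, and Fbxo5, an inhibitor of the anaphase-promoting complex, had the lowest differences, -0.49 and -0.06.

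Marker lists of oligodendrocytes, their precursors and astrocytes had their highest mean deviations in Qk-KO 4 and WT 4. Lists of blood leukocytes had their lowest there. These are the libraries numbered 4, in which many cell cycle genes were high. The microglia list lay at -0.18 in Qk-KO 4 and 0.31 in WT 4. The 8 oligodendrocyte markers had mean deviations of 1.48 in Qk-KO 4 and 1.42 in WT 4, and between -0.80 and -0.27 in the other 6 libraries. Their summed level was 122 to 278 CPM in named Qk-KO and 130 to 327 CPM in named WT libraries. The 7 astrocyte markers had mean deviations of 1.18 in Qk-KO 4 and 1.32 in WT 4, and summed levels of 82.6 to 526 CPM in named Qk-KO and 207 to 570 CPM in named WT libraries. The 7 markers of oligodendrocyte precursors, a dividing cell type of the corpus callosum, had mean deviations of 0.92 in Qk-KO 4 and 1.11 in WT 4. Their summed level was 153 to 211 CPM in named Qk-KO and 190 to 263 CPM in named WT libraries, lowest in Qk-KO 4, and Cspg4, with a mean signal of 11329, outweighed the other 6. Olig2 of that list was 3.59, 4.24, 3.22 and 6.27 in Qk-KO 1 to 4, against 4.86, 4.67, 4.19 and 6.13 in WT 1 to 4, and Pdgfra was 4.902, 4.98, 4.59 and 5.92 in Qk-KO 1 to 4, against 5.66, 4.80, 5.43 and 5.48 in WT 1 to 4. Olig1, Gpr17 and Ptprz1 were highest in the libraries numbered 4. Cspg4 was lowest in Qk-KO 4, at 12.78, and Vcan was 6.35 there, against 6.82 in Qk-KO 3. Endothelial markers (6) summed to 217 to 247 CPM in named Qk-KO and 202 to 281 CPM in named WT libraries. Mural and fibroblast markers (7) summed to 6.29 to 54.2 CPM in named Qk-KO and 11.7 to 41.1 CPM in named WT libraries, with the highest value of each named group in library 4. Neutrophil markers (8) summed to 22.6 to 65.4 CPM in named Qk-KO and 9.36 to 342 CPM in named WT libraries, and monocyte markers (7) to 36.3 to 51.1 CPM in named Qk-KO and 33.2 to 94.7 CPM in named WT libraries. The mean deviations in Qk-KO 4 and WT 4 were -1.07 and -2.03 for neutrophil markers, -0.57 and -0.96 for monocyte markers, and -0.30 and -0.38 for markers of T, NK and B cells. For each of these lists these mean deviations were the lowest of the 8 libraries. The summed levels of neutrophil and lymphocyte markers were also lowest there. For monocyte markers the sum in Qk-KO 4, 46.9 CPM, exceeded those in Qk-KO 1 (36.3 CPM) and WT 3 (42.0 CPM). Of the monocyte markers, F13a1 was 10.77 in Qk-KO 4, its highest value in named Qk-KO libraries. The erythroid markers (5) summed to 117 to 269 CPM in named Qk-KO and 225 to 415 CPM in named WT libraries. Neuron and neuroblast (7) and lymphocyte (9) markers stayed under 8 CPM in every library. Every marker had a mean signal above 0 over the 8 libraries, though regularized values do not show whether a single library had no reads. Opalin, Dcx, Dlx2, Lum, Cd3e and Cd3d had mean signals under 10, and Dlx2 did not pass the filter on low values. The part of these cells in the cell cycle values was not tested.

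**Figure D4:**
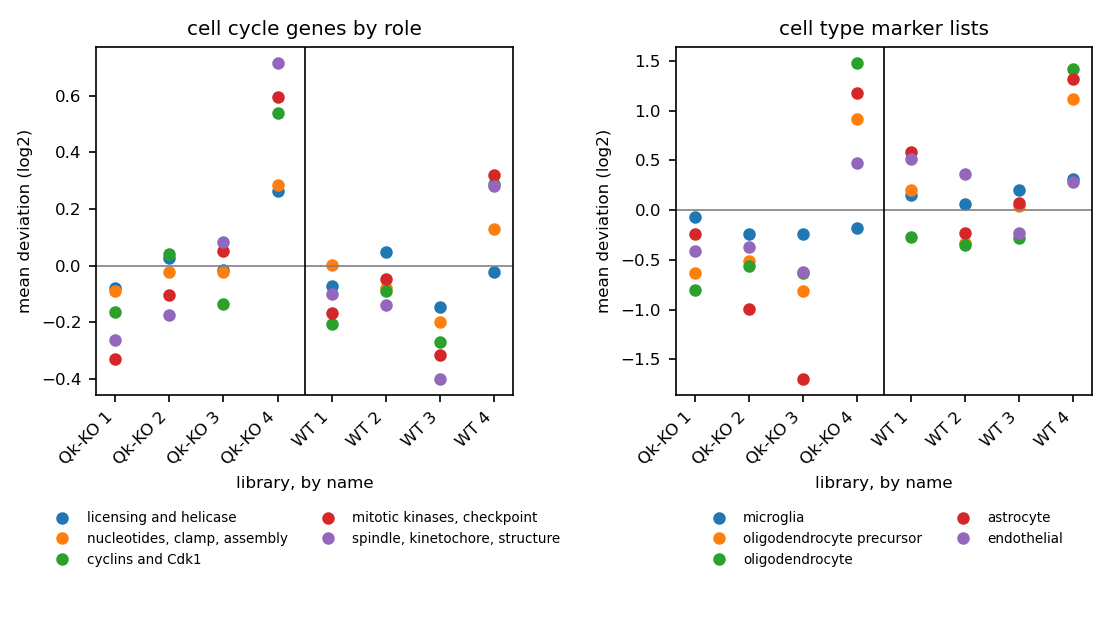
Mean deviation from the gene mean (log2) in each library, for the 5 roles of the cell cycle genes (left) and for 5 cell type marker lists (right). Qk-KO 4 lies highest for every role, and Qk-KO 4 and WT 4 lie highest for oligodendrocyte, precursor and astrocyte markers.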

How the data were processed

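RNA of 8 libraries was compared, 4 named Qk-KO and 4 named WT. Per the submitters' processing notes the authors used FastQC, HISAT2, StringTie and DESeq2 with the build mm10; their versions, their roles and the annotation are not given in the sources used here. Values were deposited by the authors as regularized log2 values per library (taken to be so from the values), with a mean normalized signal (baseMean, per the file headers). The authors' deposited comparison gives log2 fold changes with standard errors, a deposited test statistic (a score), deposited p-values and adjusted p-values; its fold changes follow the sample names (r = 0.79 across 22546 genes, against -0.12 for the genotype field). The files used hold no count per library, so the test was limma 3.58.1 in R 4.3.3 with intensity trend and robust empirical Bayes, run on the log2 values with no pseudocount. Regularization understates changes of genes with few reads.

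Genes with reads were tested if 4 libraries or more had a log2 value of 0 or higher (22546 of 27486 with reads), and a call means an adjusted p (Benjamini-Hochberg) under 0.05. The script was tested on simulated data. Size factors came from genes with reads in 1 library, whose signals were whole multiples of 1 read within 1%. CPM are values off the log2 scale over their library sum. Exon lengths and overlaps are from GENCODE M21 (GRCm38). Values in every library are given for any gene called, the 6 of largest difference, the highest of each role, and Mki67, Top2a, Mcm2, Mcm4, Ccnd1 and Pcna; of each list, calls and the 2 highest and 2 lowest differences are named; further genes were named after their values were seen. Genes and lists were chosen with earlier results of these data known. Alternatives were filters, plain empirical Bayes, median centring, a replicate block, the genotype field as a term, and leaving out libraries.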

Additional observations from a re-analysis of the deposited data

Results flagged for a closer look

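In 5 genes the value of Qk-KO 4 lay far above the other 3 named Qk-KO libraries, by a gap above Dixon's 95% critical value for groups of 4. These were Top2a at 10.71, Ccna2 at 8.91, Rrm2 at 7.90, Mcm2 at 10.35 and Bub1 at 7.62 on the regularized log2 scale. Altogether 70 groups of 4 libraries were examined, and chance flags about 5% of such groups. All 5 flags fell on the same library, and the genes move together, so they are not independent. For Top2a and Ccna2 the authors' deposited table gives no p-value.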

How the results depend on the processing

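No cell cycle gene was called by limma in any of the alternatives run, and the smallest adjusted p of any of the 34, in the comparison by name, was 0.157 (Ccnd1 without Qk-KO 4 and WT 4; Ccnd1 ranged from 0.157 to 0.795 over all alternatives). Of the 34 genes, 17 kept 1 sign in all 8 fits that left out 1 library. By name, the count of all genes called was 1, but 0 at a mean signal of at least 50 (1410 genes at an unadjusted p under 0.05), 4 without Qk-KO 4 and WT 4, and 0 to 7 when 1 library was left out, lowest without Qk-KO 3 and highest without Qk-KO 4. By genotype field it was 0, but 1 without Qk-KO 4 and WT 4 and 0 to 1 when 1 library was left out. The count of cell cycle genes above 0 was 16 to 30 by name and 11 to 31 by genotype field when 1 library was left out, lowest in both without Qk-KO 4. Median centring turned Mcm7, Cdc6, Pcna and Cdk1 to 0.043, 0.014, 0.056 and 0.075. Leaving out Qk-KO 4 and WT 4 turned Mcm6, Tyms, Chaf1a, Ccnb1, Bub1, Cdc20 and Nusap1 to -0.030, -0.066, -0.044, -0.0030, -0.11, -0.071 and -0.039, and Mcm2 by genotype field to -0.029; the cause was not tested.

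When 1 library was left out, the difference by name ran from -0.12 to 0.022 for Mcm7, -0.18 to 0.047 for Cdc6, -0.062 to 0.0092 for Pcna, -0.069 to 0.079 for Tyms, -0.12 to 0.20 for Chaf1a, -0.019 to 0.42 for Ccna2, -0.14 to 0.27 for Ccnb1, -0.10 to 0.25 for Ccnb2, -0.10 to 0.11 for Cdk1, -0.053 to 0.18 for Aurkb, -0.26 to 0.15 for Bub1, -0.13 to 0.19 for Cdc20, -0.13 to 0.25 for Ube2c, -0.031 to 0.35 for Top2a, -0.036 to 0.32 for Tpx2, -0.13 to 0.27 for Nusap1 and -0.17 to 0.34 for Prc1. By genotype field it ran from -0.14 to 0.047 for Ccnd1, -0.0048 to 0.18 for Mcm2, -0.39 to 0.0082 for Mki67, -0.12 to 0.052 for Mcm4 and -0.045 to 0.025 for Pcna.

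Whether the replicate numbers of the names pair libraries is not known here. Deviations from the named group means correlated across 22546 genes at 0.04, 0.15, 0.25 and 0.46 for the numbers 1 to 4. Qk-KO 2, Qk-KO 3 and Qk-KO 4 each correlated best with the named WT library of the same number. Qk-KO 1 correlated best with WT 3 (0.11). With the number as a block, 1 gene was called, and 2924 had an unadjusted limma p under 0.05, against 1863 without the block. With it, 28 of 34 differences stayed above 0, and Ccnd1 had a limma adjusted p of 0.217. Low signal limits Cdc6, at a mean signal of 42.1.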
